A study of Homo sapiens with 21 samples.

Results

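Collagen genes were followed as a family through 7 lines of SUM149PT cells, which stem from an inflammatory breast cancer and are labelled as lacking estrogen and progesterone receptors. Every gene whose symbol consists of COL, a number, A and a number was taken, which gave 44 of the 60617 genes in the tables. The lines were the clones M2, M1, EM3, EM2, EM1 and E and the line labelled Parental. No treatment was given, and each line was profiled in 3 poly(A) RNA libraries, 21 in all. Each clone name stands for 1 clone, so a difference between lines is a difference between those clones. Gene positions are those of GENCODE 29 on hg38, the build of the tables. Whether a line's 3 libraries are of separate cultures is not stated by the labels, so p-values here measure the spread between those libraries only. The letters E, EM and M are the labels' own and are not spelled out there. Among epithelial markers, E-cadherin (CDH1) averaged 0.0533 TPM in M2, 0.08 in M1, 35 in EM3, 50.8 in EM2, 46.8 in EM1, 108 in E and 39.2 in Parental. M2 and M1 were thus the lines near 0 for CDH1. EPCAM, KRT19 and CLDN7 averaged 0.127, 0.3 and 0.143 TPM in M2 and 1.98, 9.43 and 22.9 in M1. KRT8 and KRT18 were far from 0, at 525 and 136 TPM in M2 and 363 and 66.4 in M1. EPCAM was highest in Parental at 361 TPM, with E at 168.

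Collagens are the main structural proteins of the extracellular matrix. Their chains wind around each other into a helix inside the endoplasmic reticulum, are hydroxylated there, and are then exported. Fibrillar collagens build the cables of connective tissue, type IV collagens the sheet of the basement membrane, and type VI collagens the beaded filaments next to cells. FACIT collagens sit on fibril surfaces, transmembrane collagens span the plasma membrane, and multiplexins are found at basement membrane zones. Epithelial cells normally rest on a basement membrane, whereas fibrillar collagen in tissue is mostly made by fibroblasts.

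Library totals were 24602417 to 48149939 expected counts, the reads assigned to a gene by the authors' RSEM run. Levels are given as TPM, which scales a count by effective transcript length and by library, so that genes can be set side by side. CPM, counts scaled by library only, carry no length term. The effective length of a gene differed between lines by more than 1.5-fold for 13 of the 26 members that reached a mean of 1 TPM in a line, and counts or CPM are added where that changed a reading. Libraries also fell into sets by their mean effective length. All 3 of E and replicate 3 of each other clone lay at 1980 to 2034 bases, replicates 1 and 2 of the other clones at 2110 to 2223 bases, and Parental at 2054 to 2114 bases. A line against E was therefore also fitted with the set as a term.

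The M1 clone carried far more collagen messenger RNA than any other line. Summed over the 44 genes, TPM was 580, 602 and 719 in M2, 2100, 3540 and 2512 in M1, 418, 278 and 369 in EM3, 586, 554 and 413 in EM2, 181, 328 and 222 in EM1, 238, 257 and 260 in E, and 258, 195 and 246 in Parental. The lowest M1 library lay above the highest library of every other line. As a share of all expected counts, collagen genes took 0.817, 1.3 and 1.08% in M1 against 0.102, 0.107 and 0.102% in E. In bulk RNA, fewer cells expressing a gene and less RNA per cell cannot be told apart, and this holds for each level below.

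**Figure D1:**
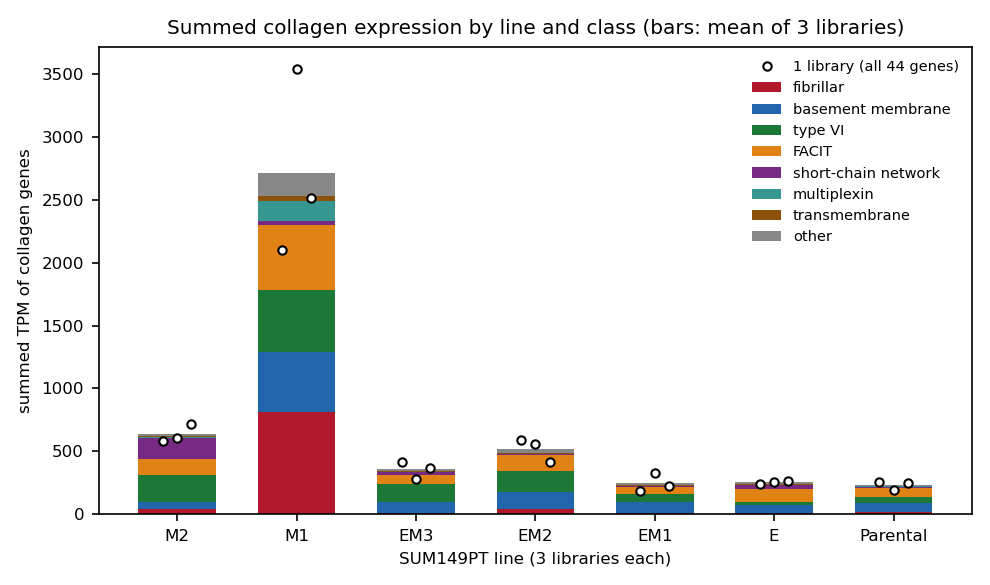
Summed TPM of the 44 collagen genes in each line. Bars stack the mean of 3 libraries by collagen class and open circles are the sums of single libraries. M1 stands at 2717 ± 742 TPM (SD, n = 3) and no library of another line above 719 TPM. By mean, fibrillar collagens are the largest class in M1, and type VI and short-chain network collagens the largest in M2.

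What the collagen RNA consisted of also differed. In M2, type VI genes made up 33.1% of summed collagen TPM and short-chain network genes 26.8%. In M2 replicate 1 the order differed, with FACIT genes at 154 TPM, short-chain network genes at 148 and type VI genes at 114. Fibrillar genes led in M1 with 30%, ahead of FACIT genes with 19.2%. Type VI led in EM3 with 40.3% and in EM2 with 32.1%, but in EM2 replicate 3 type VI and basement membrane genes both summed to 117 TPM. Basement membrane genes led in EM1 with 35.4% and FACIT genes in E with 42.2%. In Parental, basement membrane genes with 30.8% and FACIT genes with 30.7% stood level, and FACIT genes were ahead in Parental replicate 2. Fibrillar genes made up 4.26% of the collagen TPM of E.

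Of the 44 members, 26 reached a mean of 1 TPM in at least 1 line and 20 reached 10 TPM. Among the 26, 18 had their highest mean in M1. The exceptions were COL4A5, COL4A6, COL6A3, COL8A1, COL18A1 and COL28A1, highest in M2, and COL9A3 and COL17A1, highest in E. The number was 18 by CPM as well, and 18 with TPM recomputed at 1 fixed length per gene, an alternative chosen after seeing the data.

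**Figure D2:**
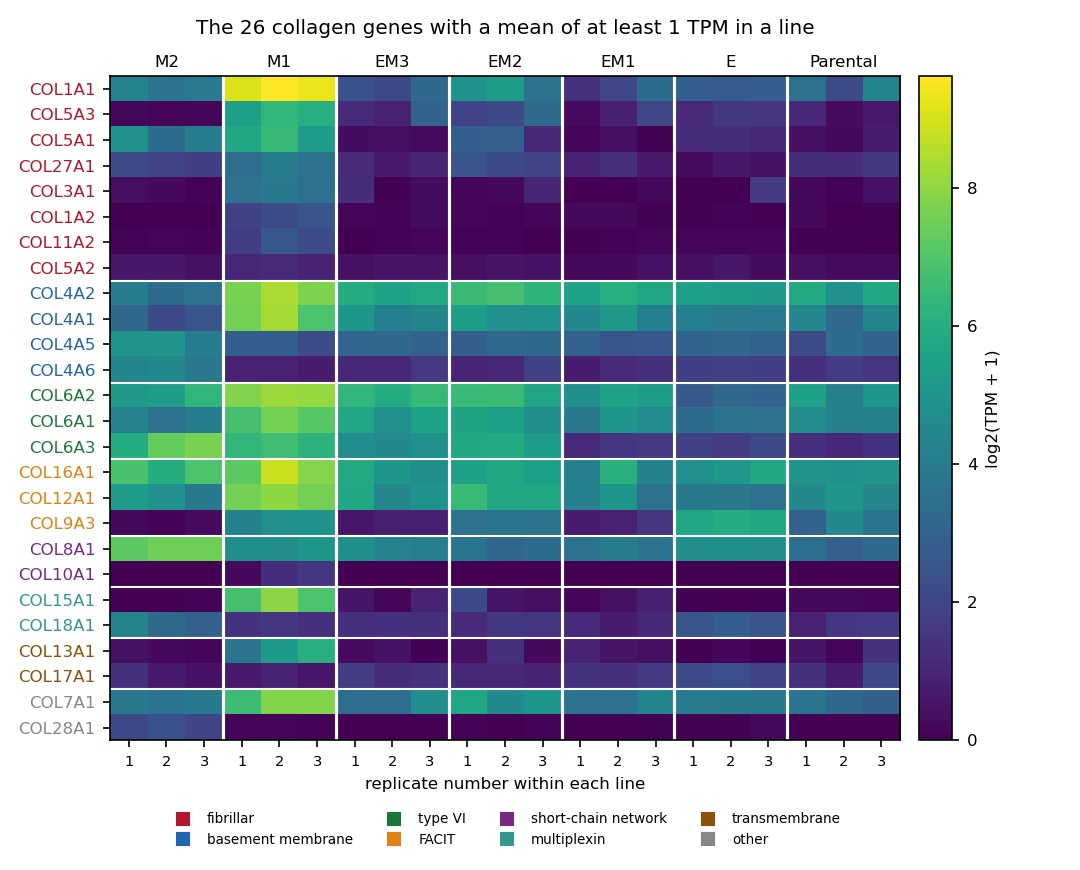
Level of the 26 collagen genes with a mean of at least 1 TPM in a line, as log2(TPM + 1), in each of the 21 libraries. Rows are grouped and coloured by collagen class and columns by line; M1 is the brightest block in most rows, M2 in COL4A5, COL4A6, COL6A3, COL8A1, COL18A1 and COL28A1, and E in COL9A3 and COL17A1.

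Tests used edgeR on rounded expected counts, with all 21 libraries in 1 fit and Benjamini-Hochberg (BH) adjustment over the 18632 genes that passed a low-count filter by line. A member was called at an adjusted p under 0.05. Every adjusted p below comes from this fit, and each log2 fold change, with its SE, is the first line named over the other. The filter kept 33 members, and a gene could pass it through 1 high line alone, so counts among the 33 describe those genes and not the family. Over all 7 lines, 32 of the 33 differed, against 62.5% of all genes tested; the exception was COL21A1. In 4 of the 150 calls made in 9 comparisons, TPM means did not run the way of the counts. These were COL3A1 and COL19A1 in M2 against E, COL28A1 in M1 against E and COL9A2 in EM2 against E.

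Between a clone and E, the balance of collagen calls turned on the clone. In M2 against E, 10 of the 33 were higher, with 24.6% of all tested genes higher, and 10 were lower, with 26.8% lower. In M1 against E, 22 were higher and 6 lower, with 18.1% of all genes higher and 18.1% lower. The 22 were the 8 tested fibrillar genes with COL4A1, COL4A2, COL4A4, COL6A1, COL6A2, COL6A3, COL7A1, COL8A2, COL10A1, COL12A1, COL13A1, COL15A1, COL16A1 and COL19A1. The 6 were COL4A5, COL4A6, COL9A3, COL17A1, COL18A1 and COL28A1. The median log2 fold change of the 33 was 0.57 in M2 against E and 3.51 in M1 against E, beside 0.01 and 0.03 over all tested genes. With the 2 genes that had no count in 1 of the lines set to their bound, the M1 median was 3.23.

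The clones named EM gave fewer calls than M2 and M1. In EM3 against E, 6 members were higher and 6 lower, with 9.36 and 7.96% of all genes. In EM2 against E, 11 were higher and 7 lower, with 6.95% of all genes each way. In EM1 against E, 4 were higher and 9 lower, with 9.84 and 8.09%; 8 in all were called without E replicate 2. E against Parental gave 6 higher and 4 lower, with 5.02 and 5.93%. The 5 comparisons of a clone with E, and E against Parental, share the E libraries. With the library set as a term, the counts higher and lower against E were 12 and 10 in M2, 21 and 6 in M1, 6 and 7 in EM3, 11 and 6 in EM2, and 3 and 8 in EM1. For E against Parental no such fit exists, and the set and the line cannot be told apart.

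Comparisons between clones that leave E out were largely one-sided. In M2 against M1, 6 members were higher and 24 lower, with 19% of all genes higher and 22.2% lower; the median log2 fold change was -3.02 beside -0.02 over all genes. In EM2 against EM1, 11 were higher, with 3.5% of all genes, and 0 lower, with 4.63%; the total was 7 without EM1 replicate 1. In EM3 against EM2, 1 was higher and 7 were lower, with 3.93 and 2.81%; the total was 5 without EM3 replicate 1 or EM3 replicate 2.

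Fibrillar collagens had their highest summed TPM in M1. Of the 11 fibrillar genes 8 were tested, and a gene could pass the low-count filter through M1 alone. All 8 were higher in M1 than in E, with 18.1% of all genes higher. All 8 were lower in M2 than in M1, with 22.2% of all genes lower. COL1A1 (chr17:50183289-50201632, minus strand), the main chain of type I collagen, stood at 19.0, 12.1 and 14.6 TPM in M2 and at 549, 789 and 641 TPM in M1. It stood at 4.40, 3.33 and 8.54 TPM in EM3, 29, 41.6 and 11.6 in EM2, 1.62, 3.09 and 9.67 in EM1, 6.25, 5.97 and 6.29 in E and 11.0, 3.57 and 19.2 in Parental. No library outside M1 came above 41.6 TPM. The M1 mean was 659 ± 121 TPM against 6.17 ± 0.174 TPM in E (SD, n = 3 each), a log2 fold change of 6.57 ± 0.74 (adjusted p = 2.02e-06).

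COL1A2 (chr7:94394561-94431232, plus strand), the partner chain that joins COL1A1 in ordinary type I collagen, did not rise to the same level. It had 2.68, 3.67 and 4.81 TPM in M1, and its highest library elsewhere was 0.25 TPM. COL1A2 was called higher in M1 than in E, a log2 fold change of 7.63 ± 1.04 (adjusted p = 1.54e-05), but the TPM of COL1A1 was 133 to 215 times that of COL1A2 in the M1 libraries. In E the ratio ran from 99.5 to 314 on 2 or 3 counts of COL1A2 a library. M2 held 1 count of COL1A2 over its 3 libraries and M1 held 1325. That is a ratio of 1187 in favour of M1, with a 95% exact binomial interval of 213 to 46915 that covers counting error only, and M2 against M1 was called with an adjusted p of 4.49e-06.

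COL3A1 (chr2:188974320-189012746, plus strand), the chain of type III collagen, was also highest in M1, at a lower level than COL1A1. It had 0.27, 0.19 and 0.07 TPM in M2, 11.3, 13.9 and 11.0 in M1, 1.42, 0.03 and 0.25 in EM3, 0.1, 0.17 and 1.07 in EM2, 0.01, 0 and 0.16 in EM1, 0.03, 0.02 and 2.06 in E and 0.15, 0.07 and 0.39 in Parental. The 2.06 TPM of E replicate 3 rested on 4 expected counts with an effective length of 29 bases. In counts, M2 had 48, 26 and 18, M1 had 1631, 2683 and 2388 and E had 5, 7 and 4. M2 against E, singled out after its values were seen, gave a log2 fold change of 2.87 ± 1.03 (adjusted p = 0.0268), a call lost without any 1 of the 3 E libraries, M2 replicate 1 or M2 replicate 2 (adjusted p up to 0.0848). M1 against E gave a log2 fold change of 8.82 ± 1.15 (adjusted p = 1.02e-05), and M2 against M1 gave a log2 fold change of -5.95 ± 0.98 (adjusted p = 8.12e-05).

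Among the chains of type V collagen, which regulate fibril width, M1 and M2 parted. COL5A1 (chr9:134641774-134844843, plus strand) had 28.4, 9.46 and 16.1 TPM in M2 and 52.7, 86.0 and 37.5 in M1. It had 0.25, 0.29 and 0.22 in EM3, 6.37, 6.69 and 1.09 in EM2, 0.11, 0.33 and 0.03 in EM1, 1.31, 1.37 and 1.13 in E and 0.33, 0.18 and 0.68 in Parental. EM1 was close to empty, with 5, 5 and 2 counts, beside 423, 510 and 449 in E. COL5A1 was called in all 9 comparisons. M2 against E gave a log2 fold change of 3.86 ± 0.56 (adjusted p = 1.35e-05) and M1 against E gave a log2 fold change of 5.57 ± 0.60 (adjusted p = 1.13e-06). It fell in EM1 against E, a log2 fold change of -6.41 ± 0.73 (adjusted p = 1.19e-05), and in EM3 against E, a log2 fold change of -2.61 ± 0.54 (adjusted p = 0.00274).

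COL5A3 (chr19:9959561-10010471, minus strand) went the other way in M2. It had 0.16, 0.11 and 0.11 TPM in M2 and 41.8, 81.1 and 65.8 in M1. It had 1.22, 0.83 and 7.09 in EM3, 2.82, 3.40 and 9.03 in EM2, 0.23, 0.79 and 3.09 in EM1, 1.27, 1.96 and 1.85 in E and 1.13, 0.23 and 0.56 in Parental. M2 lay below each other line, and M2 against E gave a log2 fold change of -4.19 ± 1.01 (adjusted p = 0.0021). The difference of M2 from M1 was a log2 fold change of -9.04 ± 1.22 (adjusted p = 8.51e-06). COL5A2, which joins COL5A1 in most type V molecules, was low, at 0.45 ± 0.0964 TPM in M2, 1.1 ± 0.142 in M1 and 0.35 ± 0.118 in E (SD, n = 3 each). Per length, COL5A1 exceeded COL5A2 19.3- to 54.6-fold in M2, 39.5- to 70-fold in M1 and 2.85- to 4.52-fold in E.

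The remaining fibrillar genes were lower. COL27A1 (chr9:114155560-114312511, plus strand), a fibrillar chain of cartilage, had 3.62, 2.78 and 2.43 TPM in M2, 9.81, 16.1 and 11.5 in M1, 1.27, 0.61 and 1.06 in EM3, 4.75, 3.32 and 2.98 in EM2, 0.94, 1.54 and 0.6 in EM1, 0.23, 0.53 and 0.36 in E and 1.38, 1.32 and 1.98 in Parental. E was the lowest line for COL27A1, and EM2 exceeded it with a log2 fold change of 3.03 ± 0.28 (adjusted p = 1.29e-06). COL11A2, a chain of type XI collagen, averaged 3.72 ± 1.4 TPM in M1 (SD, n = 3), and no other line had a mean above 0.103 TPM. COL2A1, COL11A1 and COL24A1 did not pass the filter. Their highest line means were 0.07 TPM for COL2A1 in M1, 0.64 for COL11A1 in EM2 and 0.0133 for COL24A1 in M2. The COL11A1 value came from 1 library at 1.85 TPM on 3 counts, and its summed count over 21 libraries was 27.

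Of 9 fibroblast markers, DCN and FAP were high in M1 and the other 7 stayed under 1 TPM there. Over the 9 markers the summed TPM ran from 21.1 to 25.1 in M2, 1843 to 2520 in M1, 135 to 180 in EM3, 138 to 285 in EM2, 19.4 to 40.4 in EM1, 49.5 to 60.6 in E and 50.1 to 65.1 in Parental. Decorin (DCN), a small proteoglycan that binds collagen fibrils, made up most of the M1 sum with a mean of 2001 TPM, followed by FAP with 67 TPM. In M1, LUM averaged 0.243 TPM, with PDGFRA at 0.897, PDGFRB at 0.597, THY1 at 0.207, POSTN at 0.06, ASPN at 0.0133 and MFAP5 at 0.01 TPM. LUM was at 0.453 TPM in Parental and MFAP5 at 1.47 TPM in E, both above M1. These levels were not tested. Keratin 8 (KRT8) stood at 363 TPM in M1 against 4568 TPM in E. The part of such cells in the M1 result was not tested. PDGFRA and PDGFRB were higher in M2, at 8.78 and 3.3 TPM, than in M1.

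For 3 other marker lists the sums were as follows. The summed TPM of 4 endothelial markers stayed at or below 1.17 in every library. Over 6 epithelial markers it ran from 518 to 760 in M2, 354 to 595 in M1, 1444 to 2959 in EM3, 1284 to 2748 in EM2, 1662 to 3325 in EM1, 6233 to 6911 in E and 1602 to 2879 in Parental. Over 4 blood cell markers it ran from 16.1 to 42.7 in M2, 157 to 228 in M1, 105 to 119 in EM3, 111 to 172 in EM2, 69.3 to 92.6 in EM1, 125 to 129 in E and 55.6 to 81.7 in Parental, nearly all of it CD68, with PTPRC at or below 0.557 and CD3E at or below 0.0167 TPM in every line mean.

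Of the 6 basement membrane chains, COL4A1, COL4A2 and COL4A4 were lower in M2 than in E and higher in M1 than in E, while COL4A5 and COL4A6 were higher in M2 and lower in M1. COL4A3 was lower in M2 than in E and was not called in M1 against E. Type IV collagen genes lie head to head in the genome, COL4A1 beside COL4A2, COL4A3 beside COL4A4 and COL4A5 beside COL4A6. COL4A1 (chr13:110148963-110307233, minus strand) had 8.25, 3.37 and 5.01 TPM in M2 and 194, 321 and 117 in M1. It had 32.3, 16.8 and 19.6 in EM3, 39.7, 28.5 and 29.1 in EM2, 21.7, 36.2 and 16.9 in EM1, 16.9, 15.1 and 14.8 in E and 20.7, 9.04 and 20.5 in Parental. All M1 libraries lay above, and all M2 libraries below, those of each other line. For M2 against E the test gave a log2 fold change of -1.92 ± 0.40 (adjusted p = 6.18e-04).

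COL4A2 (chr13:110305812-110513209, plus strand), its partner in the common type IV molecule, showed the same order of extremes. It had 15.5, 9.54 and 11.1 TPM in M2 and 208, 338 and 217 in M1. It had 61.0, 46.9 and 56.5 in EM3, 93.0, 108 and 76.2 in EM2, 45.3, 65.2 and 51.2 in EM1, 42.1, 39.5 and 34.9 in E and 57.8, 27.9 and 51.9 in Parental. M2 against E gave a log2 fold change of -2.00 ± 0.25 (adjusted p = 2.91e-06), and EM3 against EM2 gave a log2 fold change of -0.90 ± 0.24 (adjusted p = 0.0302); the last call was lost without any 1 of EM2 replicate 1, EM2 replicate 2 and the 3 EM3 libraries (adjusted p up to 0.129). Per length, COL4A1 stood at 0.353 to 0.533 times COL4A2 in M2, 0.538 to 0.951 times in M1 and 0.381 to 0.424 times in E. GENCODE 29 lets the genes overlap by 1422 bases, and without a known strand setting reads there cannot be assigned to either.

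COL4A5 (chrX:108439844-108697545, plus strand) and COL4A6 (chrX:108155607-108439497, minus strand), which pair in the basement membranes of smooth muscle and some epithelia, were highest in M2. COL4A5 had 31.0, 31.8 and 15.5 TPM in M2, 6.26, 6.41 and 3.64 in M1, 7.78, 8.04 and 7.16 in EM3, 6.52, 8.66 and 8.25 in EM2, 7.24, 4.96 and 5.19 in EM1, 7.29, 8.04 and 6.93 in E and 3.77, 9.63 and 7.08 in Parental. Apart from M2, the libraries lay between 3.64 and 9.63 TPM. Those of M1, at 6.41 TPM or less, lay below those of EM3, EM2 and E and overlapped with EM1 and Parental. M2 against M1 gave a log2 fold change of 2.49 ± 0.28 (adjusted p = 1.22e-06). M1 against E gave a log2 fold change of -0.90 ± 0.27 (adjusted p = 0.0151), a call lost without E replicate 2 or M1 replicate 3 (adjusted p up to 0.0553).

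COL4A6 rose further in M2. It had 19.2, 21.7 and 13.5 TPM in M2 and 0.9, 0.84 and 0.72 in M1. It had 1.18, 1.11 and 2.02 in EM3, 1.02, 1.10 and 2.59 in EM2, 0.67, 1.25 and 1.47 in EM1, 2.45, 2.54 and 2.42 in E and 1.46, 2.22 and 1.76 in Parental. The change in M2 against E was a log2 fold change of 2.92 ± 0.43 (adjusted p = 1.98e-05), and M2 against M1 gave a log2 fold change of 4.66 ± 0.47 (adjusted p = 2.77e-07). M1 was lower than E with a log2 fold change of -1.74 ± 0.42 (adjusted p = 0.00345). EM1 was lower than E as well, a log2 fold change of -1.45 ± 0.42 (adjusted p = 0.0221), a call lost without E replicate 2, E replicate 3, EM1 replicate 1 or EM1 replicate 2 (adjusted p up to 0.117). COL4A3 and COL4A4, the chains of kidney, lung and eye basement membranes, stayed below 1 TPM. The highest line means were 0.15 TPM for COL4A3 in Parental and 0.563 TPM for COL4A4 in M1. COL4A4 was lower in M2 than in E, a log2 fold change of -1.47 ± 0.38 (adjusted p = 0.00347).

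**Figure D3:**
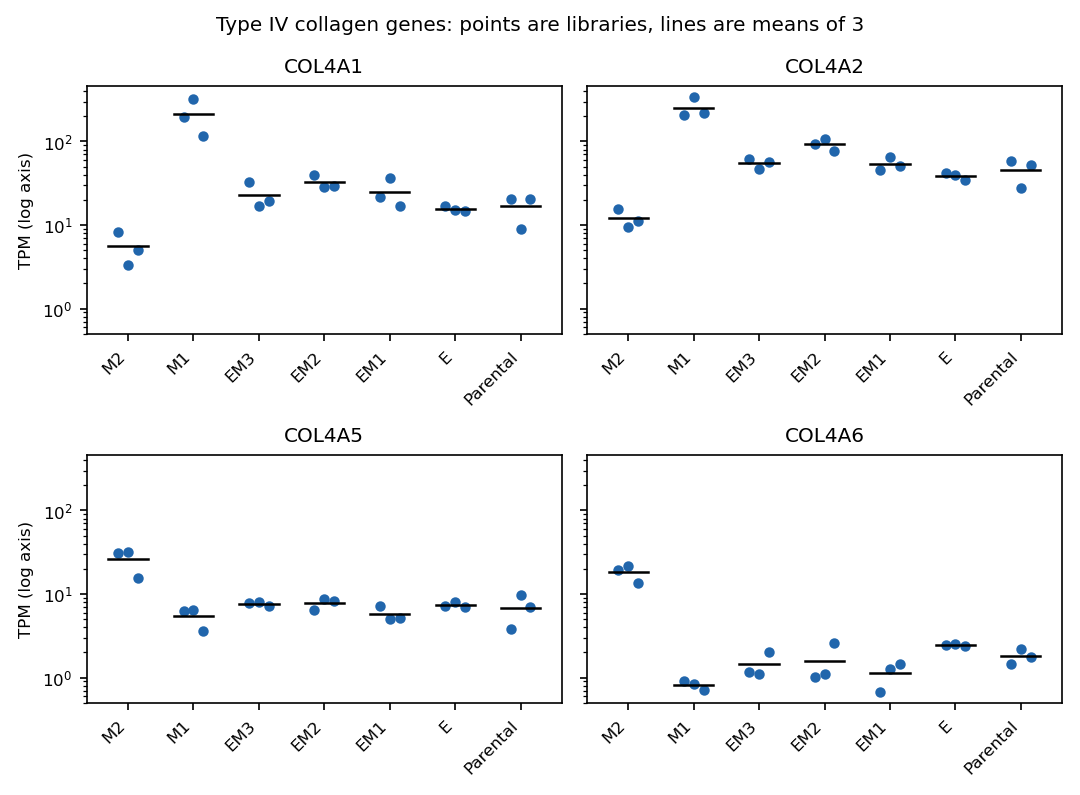
TPM of 4 type IV collagen genes in each line, on a log axis. Points are libraries and short lines are the means of 3; COL4A1 and COL4A2 are lowest in M2 and highest in M1, while COL4A5 and COL4A6 are highest in M2 and lowest in M1.

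The sequences between or before the starts of these pairs are shown because the genes of a pair changed together in M2 against E and in M1 against E. COL4A1 and COL4A2 were both called lower in M2 and higher in M1. COL4A5 and COL4A6 were both called higher in M2 and lower in M1, and both lower in EM1 against E. In EM2 against E, COL4A2 was called without COL4A1. COL4A2 and COL4A5 were called without their partners in EM2 against EM1, as was COL4A2 in EM3 against EM2. Levels of COL4A5 and COL4A6 were not in 1 fixed ratio, and the median of COL4A5 over COL4A6 in TPM was 1.47 in M2, 6.96 in M1 and 2.98 in E. The sequences come from RefSeq on GRCh38.p14, whose promoter table held a window for 32 of the 44 members. In them, capitals mark matches to 5 motifs searched on both strands. The motifs were the TATA box (TATAAA), the CCAAT box (CCAAT), the GC box (GGGCGG), the E-box bound by ZEB and SNAI factors (CACCTG) and the AP-1 site (TGANTCA). The RefSeq starts of COL4A1 and COL4A2 have 126 bases between them, at chr13:110307158-110307283 (plus strand as printed). By GENCODE 29 this segment lies inside COL4A2 and partly inside COL4A1. The bases before COL4A5 lie at chrX:108439588-108439837 (plus strand), and those before the inner start of COL4A6 at chrX:108438423-108438672 (minus strand).
COL4A1 and COL4A2: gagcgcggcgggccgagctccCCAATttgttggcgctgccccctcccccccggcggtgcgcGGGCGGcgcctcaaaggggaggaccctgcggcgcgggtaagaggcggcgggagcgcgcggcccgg
COL4A5: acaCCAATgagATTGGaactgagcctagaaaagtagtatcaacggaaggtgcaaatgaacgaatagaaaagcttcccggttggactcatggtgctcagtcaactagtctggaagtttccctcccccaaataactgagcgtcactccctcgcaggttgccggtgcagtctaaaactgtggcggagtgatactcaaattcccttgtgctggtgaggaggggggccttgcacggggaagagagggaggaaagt
COL4A6: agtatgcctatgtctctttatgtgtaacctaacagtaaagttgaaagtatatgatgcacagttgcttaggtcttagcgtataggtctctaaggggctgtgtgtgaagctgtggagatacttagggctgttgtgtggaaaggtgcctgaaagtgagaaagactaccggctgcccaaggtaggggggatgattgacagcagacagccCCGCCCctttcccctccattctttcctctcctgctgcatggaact
The first segment was 80.2% G or C and held 1 CCAAT box and 1 GC box. Of all 35116 windows in the table cut to that length, 21.1% held a CCAAT box and 34.6% a GC box. COL4A5, with 51.2% G or C, had 2 CCAAT boxes and no GC box, and COL4A6, with 48.8%, had 1 GC box and no CCAAT box. In windows of 250 bases a CCAAT box was found in 32% and a GC box in 42.6%. The E-box (17.5% of windows), the AP-1 site (6.57%) and the TATA box (10.7%) were not in these letters. The outer COL4A6 start lies 379 bases from the COL4A5 start, and the COL4A4 and COL4A3 starts are 418 bases apart. The inner COL4A6 start lies 1036 bases from the outer one, so the COL4A6 letters shown are not from the stretch between COL4A5 and COL4A6.

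Type VI collagen is assembled from the products of COL6A1, COL6A2 and COL6A3, and the lines differed in whether COL6A3 RNA was abundant. COL6A3 (chr2:237324003-237414375, minus strand) had 61.0, 164 and 204 TPM in M2 and 82.6, 101 and 73.6 in M1. It had 25.4, 22.5 and 27.3 in EM3, 52.2, 56.5 and 39.1 in EM2, 1.27, 1.88 and 2.14 in EM1, 2.60, 2.29 and 3.34 in E and 1.5, 1.16 and 1.69 in Parental. The libraries of M2, M1, EM3 and EM2 all lay above 22 TPM and those of EM1, E and Parental all below 4 TPM. M2 against E gave a log2 fold change of 5.67 ± 0.44 (adjusted p = 4.98e-09), EM3 against E gave a log2 fold change of 3.01 ± 0.39 (adjusted p = 3.64e-05), and EM2 against EM1 gave a log2 fold change of 4.81 ± 0.42 (adjusted p = 5.66e-07). M2 replicate 1 stood below the 3 M1 libraries, so that M2 and M1 overlapped. M2 against M1, singled out after its values were seen, gave a log2 fold change of 0.92 ± 0.36 (adjusted p = 0.0492), a call lost without any 1 of 14 of the 21 libraries, among them all 3 of M1 and M2 replicates 2 and 3 (adjusted p up to 0.446).

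COL6A1 and COL6A2 did not follow that division. COL6A1 (chr21:45981737-46005050, plus strand) had 18.1, 10.9 and 15.7 TPM in M2, 109, 195 and 140 in M1, 50.6, 28.5 and 47.0 in EM3, 48.5, 42.2 and 27.1 in EM2, 13.1, 32.1 and 24.9 in EM1, 9.47, 11.6 and 11.0 in E and 24.0, 17.3 and 17.8 in Parental. COL6A2 (chr21:46098097-46132849, plus strand) had 35.0, 41.0 and 80.2 TPM in M2, 220, 292 and 276 in M1, 80.8, 61.2 and 86.1 in EM3, 88.2, 94.3 and 50.3 in EM2, 27.1, 46.5 and 38.3 in EM1, 5.48, 8.21 and 7.43 in E and 44.7, 17.4 and 32.5 in Parental. M1 was highest for both, and E was the lowest line by mean, its COL6A2 libraries below those of each other line.

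COL6A2 was higher than in E in each of the other clones. The changes against E were a log2 fold change of 2.94 ± 0.43 (adjusted p = 1.74e-05) in M2, a log2 fold change of 3.28 ± 0.44 (adjusted p = 5.36e-05) in EM3, a log2 fold change of 3.33 ± 0.44 (adjusted p = 5.62e-05) in EM2 and a log2 fold change of 2.30 ± 0.42 (adjusted p = 0.00104) in EM1. In E against Parental COL6A2 was lower, a log2 fold change of -2.21 ± 0.42 (adjusted p = 0.00302). COL6A1 was higher in EM3 than in E, a log2 fold change of 1.68 ± 0.35 (adjusted p = 0.00263). COL6A1 in M2 against E and in EM1 against E did not pass the test.

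The ratio of chains moved accordingly. Per length, the median ratio of COL6A1 to COL6A3 over the libraries was 0.0769 in M2, 1.91 in M1, 1.72 in EM3, 0.747 in EM2, 11.7 in EM1, 3.64 in E and 14.9 in Parental. COL6A1 thus stood far above COL6A3 in EM1 and Parental and far below it in M2. COL6A5 and COL6A6, chains that can stand in for COL6A3 and are largely confined to other tissues, were near absent in all lines, with 17 and 5 counts over the 21 libraries. Their highest line means were 0.05 TPM in EM1 for COL6A5 and 0.0233 TPM in Parental for COL6A6.

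**Figure D4:**
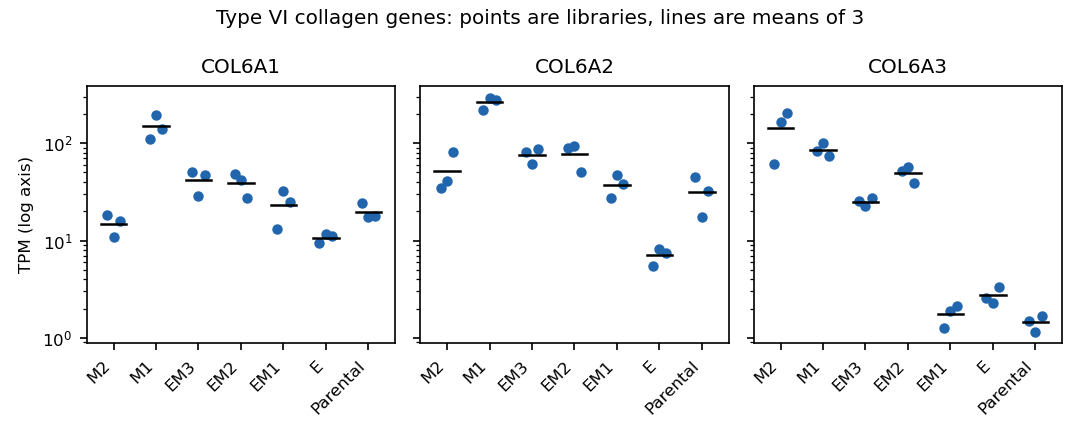
TPM of the type VI collagen genes COL6A1, COL6A2 and COL6A3 in each line, on a log axis. Points are libraries and short lines are the means of 3; COL6A3 lies between 22.5 and 204 TPM in M2, M1, EM3 and EM2 and between 1.16 and 3.34 TPM in EM1, E and Parental, a gap that COL6A1 and COL6A2 do not show.

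The bases before the RefSeq starts of COL6A2, at chr21:46097862-46098111 (plus strand), and of COL6A3, at chr2:237414165-237414414 (minus strand), are shown because the chains parted between lines. By GENCODE 29, most of the COL6A3 window and the last bases of the COL6A2 window lie inside the genes. Capitals mark the same motifs.
COL6A2: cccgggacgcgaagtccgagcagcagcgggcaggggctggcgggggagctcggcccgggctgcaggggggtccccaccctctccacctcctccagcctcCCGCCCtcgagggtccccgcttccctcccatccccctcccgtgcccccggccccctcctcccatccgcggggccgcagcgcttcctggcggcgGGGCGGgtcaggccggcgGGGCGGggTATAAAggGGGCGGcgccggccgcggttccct
COL6A3: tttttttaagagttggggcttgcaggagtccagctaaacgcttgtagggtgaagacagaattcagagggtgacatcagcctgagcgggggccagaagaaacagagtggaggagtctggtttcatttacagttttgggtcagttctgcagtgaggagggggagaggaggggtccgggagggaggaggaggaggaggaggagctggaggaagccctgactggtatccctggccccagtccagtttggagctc
COL6A2 had 4 GC boxes and 1 TATA box at 79.6% G or C. COL6A3, at 56% G or C, held none of the 5 motifs in this window. These matches are descriptions of the letters only.

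FACIT collagens held the lowest fold change of M2 against E and some of the most abundant members. COL9A3 (chr20:62816244-62841159, plus strand), a chain of the type IX collagen of cartilage, was highest in E. It had 0.14, 0.07 and 0.21 TPM in M2, 18.0, 27.2 and 29.8 in M1, 0.49, 0.81 and 0.81 in EM3, 10.9, 12.2 and 11.8 in EM2, 0.71, 0.85 and 1.71 in EM1, 51.0, 59.0 and 54.1 in E and 7.25, 22.1 and 12.4 in Parental. M2 had 13 counts in all over its 3 libraries, against 5317, 6662 and 6277 in E. In M2 against E it fell with a log2 fold change of -10.14 ± 0.72 (adjusted p = 1.68e-09), in EM3 against E with a log2 fold change of -6.77 ± 0.59 (adjusted p = 6.04e-07) and in EM1 against E with a log2 fold change of -6.41 ± 0.58 (adjusted p = 1.09e-06).

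In the other clones COL9A3 was nearer to E. EM2 against E gave a log2 fold change of -2.65 ± 0.48 (adjusted p = 0.00107), and M1 against E gave a log2 fold change of -1.60 ± 0.46 (adjusted p = 0.0116), which was lost without M1 replicate 1 (adjusted p up to 0.069). EM2 against EM1 gave a log2 fold change of 3.76 ± 0.52 (adjusted p = 1.08e-04), and M2 against M1 gave a log2 fold change of -8.54 ± 0.69 (adjusted p = 1.46e-08). The partners of COL9A3 were low in E too, COL9A2 at 0.49 ± 0.151 TPM (SD, n = 3) with its highest line mean at 0.797 TPM in M1, and COL9A1 at 0 TPM in E with its highest line mean at 0.0167 TPM in M2. COL9A3 overlaps TCFL5 on the other strand, and reads of both genes in that stretch cannot be told apart without the strand setting.

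COL12A1 (chr6:75084326-75206051, minus strand), which decorates type I fibrils, had 37.9, 28.4 and 13.8 TPM in M2, 194, 254 and 195 in M1, 51.6, 21 and 30.0 in EM3, 88.1, 53.9 and 52.8 in EM2, 17.0, 32.7 and 11.5 in EM1, 13.8, 13.4 and 11.5 in E and 23.1, 33.3 and 20.8 in Parental. M1 and then EM2 stood above all other lines. EM2 against E gave a log2 fold change of 2.04 ± 0.38 (adjusted p = 0.00129). COL16A1 (chr1:31652247-31704319, minus strand), found in fibroblasts and smooth muscle, had 116, 61.1 and 117 TPM in M2, 148, 461 and 232 in M1, 56.0, 32.9 and 26.4 in EM3, 45.1, 52.9 and 42.2 in EM2, 16.4, 68.5 and 17.6 in EM1, 27.2, 34.5 and 52.1 in E and 30.2, 29.1 and 31.4 in Parental. The 68.5 TPM of EM1 replicate 2 rested on 709 counts, fewer than the 2450 to 2832 of E, so that by TPM the lines EM1 and E overlapped.

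In counts COL16A1 was lower in EM1 than in E, with means of 25.4 CPM in EM1 and 58.1 CPM in E and a log2 fold change of -1.19 ± 0.24 (adjusted p = 0.00227). EM2 exceeded EM1 with a log2 fold change of 1.87 ± 0.25 (adjusted p = 6.03e-05), and EM3 against EM2 gave a log2 fold change of -1.06 ± 0.24 (adjusted p = 0.0095). The other FACIT members were low. COL19A1 averaged 0.71 TPM in M1, on 192 counts, and had no count in M2. At a floor of 3 counts for the M2 libraries together, COL19A1 in M1 was at least 57.3-fold higher. COL21A1 had its highest line mean in Parental at 0.763 TPM and did not pass any test here. That mean came mostly from 1 library at 2.11 TPM, on 2 counts with an effective length of 20 bases. By CPM its highest line was M2, with a mean of 0.21. COL14A1, COL20A1 and COL22A1 did not pass the filter, and their highest line means were 0.0867 TPM in EM3, 0.103 TPM in EM3 and 0.07 TPM in M2.

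Short-chain collagens gave M2 its most abundant collagen by mean TPM. COL8A1 (chr3:99638475-99799226, plus strand), a chain of the type VIII collagen of vessel walls and the cornea, had 148, 179 and 182 TPM in M2 and 27.0, 25.7 and 32.8 in M1. It had 26.5, 18.3 and 16.9 in EM3, 12.5, 8.03 and 9.58 in EM2, 11.0, 15.6 and 12.0 in EM1, 26.0, 26.9 and 25.8 in E and 10.3, 6.73 and 9.23 in Parental. The M2 mean was 170 TPM for COL8A1 and 143 TPM for COL6A3, but COL6A3 was ahead in M2 replicate 3. In CPM, which carry no length term, the M2 means were 574 for COL8A1 and 1537 for COL6A3. The lowest M2 library of COL8A1 lay above 4 times its highest library in any other line. M2 against E gave a log2 fold change of 3.12 ± 0.21 (adjusted p = 9.64e-10), and M2 against M1 gave a log2 fold change of 2.81 ± 0.21 (adjusted p = 5.18e-09).

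Among the other lines COL8A1 was higher in E than in Parental, a log2 fold change of 1.57 ± 0.20 (adjusted p = 1.03e-04). It was lower in EM2 than in E, a log2 fold change of -1.39 ± 0.20 (adjusted p = 1.43e-04), and higher in EM3 than in EM2, a log2 fold change of 0.99 ± 0.20 (adjusted p = 0.00399). COL8A2, its partner chain, went the other way and was lowest in M2, with line means of 0.00667 TPM in M2, 0.337 TPM in M1 and 0.0533 TPM in E. On summed counts of 3 in M2, 196 in M1 and 41 in E, COL8A2 was 58.5-fold higher in M1 than in M2, with a 95% exact binomial interval of 19.7 to 286 that covers counting error only. COL10A1, the collagen of hypertrophic cartilage, had 18, 19 and 27 counts in M1 and none in M2, EM3, E or Parental. At a floor of 3 counts over the libraries of a line, COL10A1 in M1 was at least 23.8-fold higher than in E and at least 19.1-fold higher than in M2. The M1 mean was 1.15 TPM on short effective lengths, and COL10A1 overlaps NT5DC1 on the other strand.

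The multiplexin COL15A1 (chr9:98943179-99070792, plus strand), which sits just below basement membranes, had the highest fold change of M1 against E among the members. It had 0.02, 0.02 and 0.07 TPM in M2 and 109, 249 and 118 in M1. It had 0.47, 0.12 and 0.94 in EM3, 3.34, 0.45 and 0.33 in EM2, 0.12, 0.34 and 0.79 in EM1, 0.05, 0.02 and 0.05 in E and 0.2, 0.14 and 0.09 in Parental. By TPM the contrast is larger than in counts, since the mean effective length was 1740 bases in M1 and 4911 bases in E; in counts, M1 had 7161, 19172 and 9976 and E had 16, 7 and 18. M1 against E gave a log2 fold change of 9.90 ± 0.94 (adjusted p = 2.44e-07), and M2 against M1 gave a log2 fold change of -10.87 ± 1.00 (adjusted p = 8.11e-08).

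COL15A1 was also called higher in the clones named EM, at a low level. The changes against E were a log2 fold change of 3.09 ± 0.77 (adjusted p = 0.00941) in EM3, a log2 fold change of 3.29 ± 0.77 (adjusted p = 0.00756) in EM2 and a log2 fold change of 2.95 ± 0.77 (adjusted p = 0.0132) in EM1. The EM3 call was lost without E replicate 2 or EM3 replicate 3 (adjusted p up to 0.0592), and the EM1 call without E replicate 2 or EM1 replicate 3 (adjusted p up to 0.0771). The bases before its RefSeq start lie at chr9:98943657-98943906 (plus strand), which is inside the gene as placed by GENCODE 29.
COL15A1: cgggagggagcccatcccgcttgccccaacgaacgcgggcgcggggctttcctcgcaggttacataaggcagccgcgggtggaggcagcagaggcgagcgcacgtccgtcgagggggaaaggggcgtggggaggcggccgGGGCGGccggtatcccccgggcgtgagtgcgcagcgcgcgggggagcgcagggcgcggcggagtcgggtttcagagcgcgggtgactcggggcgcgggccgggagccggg
They were 76.8% G or C, with 1 GC box in capitals and none of the other motifs.

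COL18A1 (chr21:45405137-45513720, plus strand), the multiplexin whose end fragment is endostatin, was highest in M2 and E. It had 18.6, 8.99 and 6.75 TPM in M2, 1.63, 1.87 and 1.47 in M1, 1.52, 1.5 and 1.46 in EM3, 1.30, 1.95 and 1.74 in EM2, 1.23, 0.69 and 1.11 in EM1, 4.96, 6.41 and 4.80 in E and 0.85, 1.89 and 1.99 in Parental. Every other line lay below 2 TPM. M2 against M1 gave a log2 fold change of 2.92 ± 0.34 (adjusted p = 1.48e-06), and E against Parental gave a log2 fold change of 2.09 ± 0.33 (adjusted p = 6.68e-04). EM1 against E gave a log2 fold change of -3.00 ± 0.34 (adjusted p = 1.16e-05), and M1 against E gave a log2 fold change of -2.35 ± 0.33 (adjusted p = 2.43e-05). SLC19A1 and antisense genes overlap COL18A1 on the other strand.

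Transmembrane collagens were high in different lines. COL13A1 (chr10:69801867-69964275, plus strand), a cell-surface collagen of adhesion sites, had 0.34, 0.17 and 0.1 TPM in M2, 12.1, 37.4 and 67.1 in M1, 0.22, 0.4 and 0.05 in EM3, 0.35, 1.47 and 0.17 in EM2, 0.95, 0.43 and 0.32 in EM1, 0.03, 0.09 and 0.03 in E and 0.47, 0.13 and 1.56 in Parental. The M1 libraries differed among themselves more than 5-fold, and all lay above the others. M1 against E gave a log2 fold change of 8.80 ± 0.99 (adjusted p = 1.85e-06), and M2 against M1 gave a log2 fold change of -7.53 ± 0.93 (adjusted p = 2.93e-06). COL17A1 (chr10:104031286-104085957, minus strand), the hemidesmosome collagen that anchors basal epithelial cells, was highest in E.

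COL17A1 averaged 0.83 ± 0.594 TPM in M2, 0.68 ± 0.213 in M1, 1.79 ± 0.473 in EM3, 1.05 ± 0.136 in EM2, 1.76 ± 0.31 in EM1, 3.62 ± 0.501 in E and 1.82 ± 1.36 in Parental (SD, n = 3 each). It was lower than in E in each other clone, with a log2 fold change of -3.21 ± 0.36 (adjusted p = 6.42e-07) in M2, a log2 fold change of -3.76 ± 0.37 (adjusted p = 3.26e-07) in M1, a log2 fold change of -1.97 ± 0.34 (adjusted p = 5.75e-04) in EM3, a log2 fold change of -2.05 ± 0.34 (adjusted p = 4.72e-04) in EM2 and a log2 fold change of -1.65 ± 0.33 (adjusted p = 0.00227) in EM1. Parental was lower too, E against Parental giving a log2 fold change of 1.75 ± 0.34 (adjusted p = 0.00326). By TPM 1 Parental library, at 3.33, lay within the range of E. That library had 161 counts, or 5.28 CPM, and the lowest E library had 509 counts, or 11.9 CPM, so the lines did not overlap in CPM. COL25A1, a neuronal transmembrane collagen, had no count in E and reached 0.34 TPM in Parental on 25 counts. COL23A1 did not pass the filter, and its highest line mean was 0.02 TPM in M1.

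Of the members outside these classes, COL7A1 was abundant. COL7A1 (chr3:48564073-48595267, minus strand), the anchoring fibril of skin, had 13.8, 11.7 and 14.0 TPM in M2, 95.6, 228 and 226 in M1, 9.97, 9.93 and 25.4 in EM3, 49.8, 22.6 and 32.6 in EM2, 11.3, 11.0 and 19.5 in EM1, 14.2, 13.9 and 13.7 in E and 12.1, 8.43 and 6.5 in Parental. M1 lay above all other lines, and M2 and E overlapped. COL28A1 (chr7:7356203-7535853, minus strand), found around glia in mouse nerves, was seen mainly in M2, with 371, 260 and 473 counts and a mean of 3.56 TPM. E had 11, 12 and 15 counts and Parental none. For M2 against E the fit had a log2 fold change of 5.16 ± 0.47 (adjusted p = 1.15e-07), and M2 against M1 gave a log2 fold change of 6.64 ± 0.52 (adjusted p = 2.66e-08). At a floor of 3 counts over the Parental libraries, COL28A1 in E was at least 8.39-fold higher than in Parental. COL26A1 had 2 counts in all, with its highest line mean at 0.0433 TPM in M1.

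**Figure D5:**
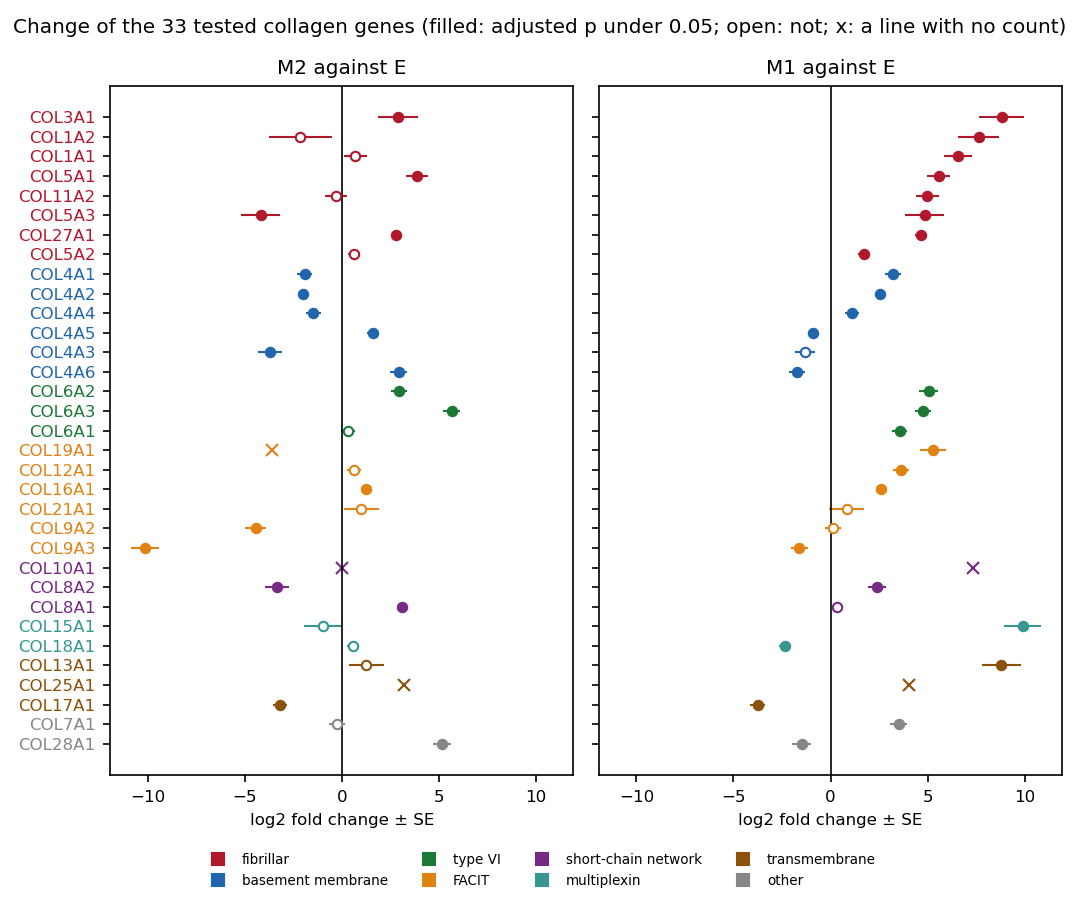
Log2 fold change of the 33 tested collagen genes in M2 against E and in M1 against E. Bars are SE from the edgeR fit, filled points passed an adjusted p of 0.05, open points did not, and crosses are genes with no count in 1 of the lines, whose position depends on the fit; the fibrillar genes all lie to the right in M1 against E, and COL9A3 lies farthest to the left in M2 against E with -10.14.

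The clones named EM were then compared with each other. EM2 stood above EM1 in COL1A1, COL4A2, COL4A5, COL5A1, COL6A3, COL7A1, COL9A3, COL12A1, COL16A1, COL18A1 and COL27A1. In this comparison COL5A1 gave a log2 fold change of 8.12 ± 0.76 (adjusted p = 1.28e-06), COL27A1 gave a log2 fold change of 2.39 ± 0.28 (adjusted p = 1.42e-05) and COL1A1 gave a log2 fold change of 2.64 ± 0.62 (adjusted p = 0.0116), the last lost without EM1 replicate 1 or EM1 replicate 2 (adjusted p up to 0.065). In EM3 against EM2, which shares the EM2 libraries, COL1A1, COL4A2, COL5A1, COL9A3, COL16A1, COL27A1 and COL28A1 were lower. There COL5A1 gave a log2 fold change of -4.32 ± 0.58 (adjusted p = 9.48e-05), COL9A3 gave a log2 fold change of -4.13 ± 0.53 (adjusted p = 5.70e-05), COL27A1 gave a log2 fold change of -2.12 ± 0.27 (adjusted p = 6.25e-05) and COL1A1 gave a log2 fold change of -2.64 ± 0.62 (adjusted p = 0.013), the last lost without EM3 replicate 1 or EM3 replicate 2 (adjusted p up to 0.0763).

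COL1A1 in EM2 against E, a log2 fold change of 1.95 ± 0.61 (adjusted p = 0.038), was lost without any 1 of the 3 E libraries, EM2 replicate 1 or EM2 replicate 2 (adjusted p up to 0.144). COL27A1 in EM3 against E, a log2 fold change of 0.91 ± 0.27 (adjusted p = 0.0262), was lost without any 1 of the 3 E libraries or EM3 replicate 1 (adjusted p up to 0.163). For COL18A1 the changes against E were a log2 fold change of -2.33 ± 0.33 (adjusted p = 1.07e-04) in EM3 and a log2 fold change of -1.91 ± 0.33 (adjusted p = 6.51e-04) in EM2. Against Parental, E was higher in COL5A1, a log2 fold change of 2.16 ± 0.54 (adjusted p = 0.0161), a call lost without E replicate 2 or Parental replicate 2 (adjusted p up to 0.0676). It was higher in COL9A3, a log2 fold change of 2.46 ± 0.48 (adjusted p = 0.00349), and lower in COL27A1, a log2 fold change of -1.76 ± 0.27 (adjusted p = 6.29e-04).

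Genes that modify, fold, export and trim procollagen were taken as a list of 32, of which 31 were tested. In M2 against E 11 were higher and 6 lower, and in M1 against E 14 were higher and 3 lower. In M2 against M1 10 were higher and 9 lower. The shares of all genes called were those given above for each comparison. The median log2 fold change of the 31 was 0.52 in M2 against E and 0.54 in M1 against E, beside 0.01 and 0.03 over all genes. In EM3 against E 1 was higher and 4 were lower, in EM2 against E 3 and 4, and in EM1 against E 0 and 4. E against Parental gave 3 higher and 0 lower, EM2 against EM1 3 and 1, and EM3 against EM2 1 and 1.

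In M1, the export coat genes SEC24D and SEC23A rose against E, SEC24D with a log2 fold change of 2.89 ± 0.63 (adjusted p = 0.0015) and SEC23A with a log2 fold change of 2.08 ± 0.22 (adjusted p = 8.91e-07). P4HA1, a catalytic chain of prolyl 4-hydroxylase, rose with a log2 fold change of 2.18 ± 0.33 (adjusted p = 4.41e-05), its mean at 58.8 ± 25.4 TPM in M1 and 9.35 ± 0.117 TPM in E (SD, n = 3 each). ADAMTS3, which removes amino-terminal propeptides, rose with a log2 fold change of 2.61 ± 0.39 (adjusted p = 4.09e-05) at 1.47 TPM in M1 and 0.227 TPM in E. P3H2, a prolyl 3-hydroxylase acting on basement membrane collagen, fell with a log2 fold change of -5.64 ± 0.55 (adjusted p = 3.25e-07), at 0.947 ± 0.377 TPM in M1 and 33.6 ± 4.65 TPM in E. TMEM38B, an ion channel of the endoplasmic reticulum, fell with a log2 fold change of -1.5 ± 0.21 (adjusted p = 1.85e-05), and the export receptor MIA3 with a log2 fold change of -0.49 ± 0.18 (adjusted p = 0.0431). The MIA3 call was lost without any 1 of the 3 E libraries, M1 replicate 2, M1 replicate 3 or EM3 replicate 1 (adjusted p up to 0.13).

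Several of these genes changed in M2 against E, and some in M2 against M1. ADAMTS2, the propeptidase of type I and III procollagen, stood at 8.43 ± 2.21 TPM in M2, 0.0633 ± 0.0153 TPM in M1 and 0.05 ± 0.0529 TPM in E, with a log2 fold change of 8.30 ± 0.62 (adjusted p = 3.39e-09) against E. PCOLCE, which speeds removal of the carboxy-terminal propeptide, rose in M2 against E with a log2 fold change of 3.56 ± 0.34 (adjusted p = 7.54e-08). The folding enzyme FKBP14 rose in M2 against E with a log2 fold change of 2.44 ± 0.28 (adjusted p = 7.92e-07). For SEC24D, M2 against E gave a log2 fold change of 2.93 ± 0.63 (adjusted p = 7.74e-04), close to its change in M1 against E. PLOD2, a lysyl hydroxylase that marks sites of cross-linking, stood at 11.6 ± 7.68 TPM in M2, 263 ± 142 TPM in M1 and 62.5 ± 3.75 TPM in E. PLOD2 fell in M2 against E with a log2 fold change of -3.03 ± 0.51 (adjusted p = 7.71e-05) and in M2 against M1 with a log2 fold change of -4.54 ± 0.55 (adjusted p = 2.28e-06).

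P4HA2, another prolyl 4-hydroxylase chain, fell in M2 against E with a log2 fold change of -1.55 ± 0.33 (adjusted p = 7.91e-04). It fell in M2 against M1 with a log2 fold change of -2.66 ± 0.35 (adjusted p = 5.72e-06). ADAMTS3 fell in M2 against M1 with a log2 fold change of -3.81 ± 0.42 (adjusted p = 6.83e-07), and PLOD1 with a log2 fold change of -1.75 ± 0.25 (adjusted p = 1.51e-05). P3H2 was higher in M2 than in M1, a log2 fold change of 5.63 ± 0.55 (adjusted p = 1.73e-07), at 60.6 ± 47.7 TPM in M2 against 0.947 ± 0.377 TPM in M1. P4HA2 and P3H2 were called lower than E in EM3, EM2 and EM1, comparisons that share the E libraries, P3H2 with a log2 fold change of -2.88 ± 0.48 (adjusted p = 4.44e-04) in EM3, a log2 fold change of -3.13 ± 0.48 (adjusted p = 2.46e-04) in EM2 and a log2 fold change of -2.96 ± 0.48 (adjusted p = 3.61e-04) in EM1. E was also higher than Parental in both, P4HA2 with a log2 fold change of 1.61 ± 0.33 (adjusted p = 0.00536) and P3H2 with a log2 fold change of 1.81 ± 0.46 (adjusted p = 0.0179), the P3H2 call lost without E replicate 2, E replicate 3, Parental replicate 2 or Parental replicate 3 (adjusted p up to 0.0823). PLOD1 was higher in EM2 than in EM1, a log2 fold change of 1.34 ± 0.25 (adjusted p = 0.00157).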

How the data were processed

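Poly(A) RNA of 7 lines was sequenced single-end in 3 libraries each, and lines were grouped by the clone names in the labels. Per the submitters' processing notes, bcl2fastq 2.20.0.422, cutadapt 2.4, STAR 2.7.2b and RSEM 1.3.2 were used with the hg38 build. The annotation release and the strand setting are not given in the sources used here. The authors deposited expected counts per gene, not normalized, and TPM, scaled by them for effective length and library.

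Members were all symbols of the form COL, number, A, number. Members and lists were chosen with earlier results of these data known. Expected counts were rounded to whole numbers, genes were filtered by line (filterByExpr), TMM factors (0.915 to 1.13) were applied, and all 21 libraries were fitted in edgeR 4.0.16 (R 4.3.3) with its quasi-likelihood test and Benjamini-Hochberg adjustment over 18632 genes. Library totals of 24602417 to 48149939 counts set the counting precision, and a line with no count was given a floor of 3 counts over its libraries, which covers counting error only. Genes given with fold changes were, per comparison and direction, up to 6 called members that averaged at least 1 CPM over both lines and did not overlap in CPM. Up to 4 genes per direction were named from the biosynthesis list. The test was also run on simulated counts, and that outcome is not reported here. Their spread was smaller than in these data and genes at a few counts were left unchanged, so the run does not cover such members.

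Alternatives were DESeq2 1.42.0, limma 3.58.1 (voom, and log2(TPM + 1)), no or stricter filtering, the compared lines only, the library set or the replicate number as a term, and leaving out each library. Of the same-numbered libraries, 37 of 63 pairs of deviations from line means correlated above 0.1, with a median of 0.19. Among the 9 comparisons, only in EM3 against EM2 did each of the 3 pairs, at 0.55, 0.72 and 0.76.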

Additional observations from a re-analysis of the deposited data

Results flagged for a closer look

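For 9 of the 33 tested collagen genes, beside 3.28% of all tested genes, the change against E was called in both M2 and M1 and ran in opposite directions, and the difference between M2 and M1 was itself called by edgeR with Benjamini-Hochberg adjustment. The M2 and M1 values share the E libraries. No explanation was weighed.

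Type IV genes made up 5 of the 9. COL4A1 had a log2 fold change of -1.92 in M2 against E and 3.23 in M1 against E, and -5.15 in M2 against M1 (adjusted p = 5.61e-08). COL4A2 had -2.00 in M2 against E and 2.54 in M1 against E, and -4.54 in M2 against M1 (adjusted p = 3.79e-10). COL4A4, which stays below 1 TPM, had -1.47 and 1.10 in the same order, and -2.57 in M2 against M1 (adjusted p = 3.26e-05). COL4A5 ran the other way, with 1.59 in M2 against E, -0.90 in M1 against E and 2.49 in M2 against M1 (adjusted p = 1.22e-06). COL4A6 had 2.92 in M2 against E, -1.74 in M1 against E and 4.66 in M2 against M1 (adjusted p = 2.77e-07).

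The others belong to 4 classes. COL5A3 had -4.19 in M2 against E, 4.85 in M1 against E and -9.04 in M2 against M1 (adjusted p = 8.51e-06). COL8A2 had -3.33 in M2 against E, 2.4 in M1 against E and -5.72 in M2 against M1 (adjusted p = 4.17e-07), on 3 counts over the M2 libraries. COL19A1 had -3.62 in M2 against E, 5.28 in M1 against E and -8.90 in M2 against M1 (adjusted p = 1.37e-06); with no count in M2 and 5 counts in E, the fitted values depend on the prior count. COL28A1 had 5.16 in M2 against E, -1.48 in M1 against E and 6.64 in M2 against M1 (adjusted p = 2.66e-08). Its fall in M1 against E rested on 12 counts over the M1 libraries and 38 over the E libraries. TPM means did not fall, at 0.0867 in M1 and 0.0833 in E, where mean effective lengths were 1023 and 2863 bases.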

How the results depend on the processing

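Of 150 calls between a collagen gene and a comparison, DESeq2 kept 147, limma voom 138, no filter 140, the stricter filter 130 of 131 and the fit of the compared lines only 137 of 144. With the library set as a term, 133 of 140 were kept. On log2(TPM + 1), which covers 21 members, 87 of 114 were kept, 26 fell short of the threshold, and COL3A1 in M2 against E turned to -0.33 (adjusted p = 0.482). Leaving out 1 library kept 2984 of 3150.

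On log2(TPM + 1), collagen counts came to 13 in M2 against E, 19 in M2 against M1, 6 in EM3 against E, 6 in EM1 against E, 6 in EM2 against EM1, 5 in EM3 against EM2, 5 in E against Parental and 21 over all lines. That setting covers fewer members, and calls were also lost among the members it covers. With no filter the count was 20 in EM1 against E and 13 in EM3 against EM2, and with the compared lines only it was 7 in EM2 against EM1; the cause was not tested. Biosynthesis counts with the compared lines only were 7 in EM1 against E, 8 in EM3 against E, 2 in EM2 against EM1, 1 in EM3 against EM2 and 9 in E against Parental. With the set term they were 11 in EM2 against E and 8 in EM3 against E, on log2(TPM + 1) 0 in EM3 against EM2, and with no filter 5 in E against Parental.

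The replicate block gave collagen calls of 10 and 10 in M2 against E, 22 and 6 in M1 against E, 1 and 8 in EM3 against EM2, where the pairing held, and 8 and 5 in E against Parental; all but 1 of the 150 calls were kept, and biosynthesis calls in E against Parental came to 6 with the replicate block.

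Without 1 library, collagen calls ran from 18 to 20 in M2 against E, 25 to 29 in M1 against E, 8 to 13 in EM3 against E, 12 to 19 in EM2 against E, 8 to 15 in EM1 against E, 28 to 30 in M2 against M1, 7 to 12 in EM2 against EM1, 5 to 9 in EM3 against EM2, 7 to 12 in E against Parental and 31 to 33 over all lines. Biosynthesis calls ran from 12 to 20, 13 to 18, 2 to 5, 4 to 8, 3 to 5, 16 to 20, 2 to 4, 0 to 2 and 1 to 4 in the same 9 comparisons. With 3 libraries of 1 clone a line, and members at a few counts, small differences may have gone undetected.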
